A study of Nicotiana tabacum with 6 samples.

Results

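The genes described here are 116 light signalling and circadian clock loci of tobacco explants, followed between 2 concentrations of an auxin. They were chosen from the description of the closest protein match that the deposited table gives for each locus. A locus was taken when its description named a phytochrome, cryptochrome, phototropin, APRR, GIGANTEA, EARLY FLOWERING, CONSTANS, COP1, SPA1-RELATED, HY5, REVEILLE, ADAGIO or LNK protein and when its mean level over all libraries was at least 0.5 FPKM. FPKM is the number of sequenced fragments of a transcript scaled to its length and to the fragments of the library. Of 39825 loci in the table, 129 carried one of these names, and 116 of those reached 0.5 FPKM, among 32443 loci of any kind that did so. The rule itself uses names and mean levels and no difference between the treatments. The locus nearest above the minimum was a phytochrome B-like locus with a mean of 0.508 FPKM, and the nearest below was a GIGANTEA-like locus with 0.308 FPKM. The names LHY and LUX were also searched as words and matched 0 loci. Loci under PCL1, another name of LUX, are given apart and are not among the 116. The letters of LUX also occur in the words efflux and influx, and the 36 transporter loci with those words were left out.

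RNA came from explants, pieces cut from cotyledons, kept for 2 weeks on medium with the synthetic auxin NAA (1-naphthaleneacetic acid). Its concentration was 0.1 mg/L for 3 libraries and 0.5 mg/L for 3 others. By the methods of the study the medium for callus and shoot induction also held the cytokinin 6-benzyladenine, kanamycin and Timentin, explants were infected with Agrobacterium before they were moved to it, and cultures stood under a daily light and dark cycle. Whether the sequenced explants were infected, and the hour at which they were harvested, are not given in the sources used here. The labels name the plant Nicotiana tabacum, the methods name N. benthamiana, and each locus carries an identifier of Niben261, an N. benthamiana assembly, that includes its chromosome. How the 3 libraries of a group were taken from the explants is not described, so p-values measure the spread between these libraries, which may be technical. An explant is a mixture of tissues, and a lower level can come from fewer cells of a type or from less RNA per cell, which cannot be told apart here.

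Plants read light through several families of receptors. Phytochromes sense red and far-red light, while cryptochromes, phototropins and the ADAGIO (ZEITLUPE) proteins sense blue light. In darkness the ubiquitin ligase COP1, working with SPA proteins, marks light-promoting transcription factors such as HY5 for destruction, and active photoreceptors hold COP1 back. The circadian clock is a set of genes that repress or activate each other around the day. In Arabidopsis, MYB factors of the LHY and REVEILLE family and APRR9 and APRR7 lead in the morning, and GIGANTEA, APRR1 (TOC1) and EARLY FLOWERING 3 act towards the evening. The CONSTANS-LIKE zinc finger proteins stand downstream of light and clock, and CONSTANS itself promotes flowering in long days in Arabidopsis.

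The FPKM values summed to between 1140994 and 1155639 per library at 0.1 mg/L and to between 986722 and 1015420 at 0.5 mg/L NAA. The number of reads is unknown, because the table holds no counts, and steps of the low values put replicate 3 at 0.1 mg/L at 0.742 of the depth of replicate 1. Markers of green and of dividing tissue differed between the treatments. Of 38 chlorophyll a-b binding protein loci tested, 36 fell, and the 43 loci of the table summed to 4878 to 5533 FPKM at 0.1 mg/L against 1479 to 1732 at 0.5 mg/L NAA. The small subunit of RuBisCO (8 loci, 3 of them lower) summed to 2754 to 2909 against 1245 to 2119 FPKM, the B-type cyclins (6 tested, 4 lower) to 647 to 678 against 308 to 401, and histone H4 (2 loci, both lower) to 781 to 808 against 340 to 446. Secondary wall loci (13, of which 9 were lower and 1 higher) summed to 163 to 167 against 47.0 to 82.4 FPKM, and TIFY loci of the jasmonate response (16 tested, 7 higher and 3 lower) to 625 to 639 against 651 to 830. No locus of these lists was at 0 in all 6 libraries, and the words for shoot meristem markers matched 0 loci. The part of tissue composition in the values that follow was not tested.

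Light and clock genes changed mainly upwards and mostly by less than 2-fold on the scale of FPKM + 1. Of the 116 loci, 40 were higher and 15 lower at 0.5 mg/L than at 0.1 mg/L NAA by limma's moderated test on log2(FPKM + 1), with a Benjamini-Hochberg adjusted p under 0.05 over all 32443 loci tested. This is 47.4% of the light and clock loci, where 41.9% of all loci passed. The share that rose was 34.5% against 21.7% of all loci, and the share that fell was 12.9% against 20.2%. Their median log2 fold change was 0.17, beside 0.02 over all 32443, and single loci ranged from -1.23 to 1.72. Adding 1 to each FPKM makes the fold change of weakly expressed loci smaller than the ratio of their levels. In 46 loci the lowest library of the 0.5 mg/L group exceeded the highest of the 0.1 mg/L group (39.7%, with 28.8% of all loci), and in 24 the order was the reverse (20.7%, with 25.9% of all loci). The treatments thus did not overlap in 70 loci (60.3%, with 54.7% of all loci). With 3 libraries in each group, the smallest p of an exact two-sided permutation test of a single locus is 0.1. Rescaling every library to the same total moved the median of all loci from 0.02 to 0.19 and that of the light and clock loci to 0.31, with 49 higher and 11 lower among them and 11113 higher and 3954 lower among all loci. Without replicate 1 at 0.1 mg/L, 26 were higher and 14 lower, where 15.0% of all loci were higher.

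**Figure D1:**
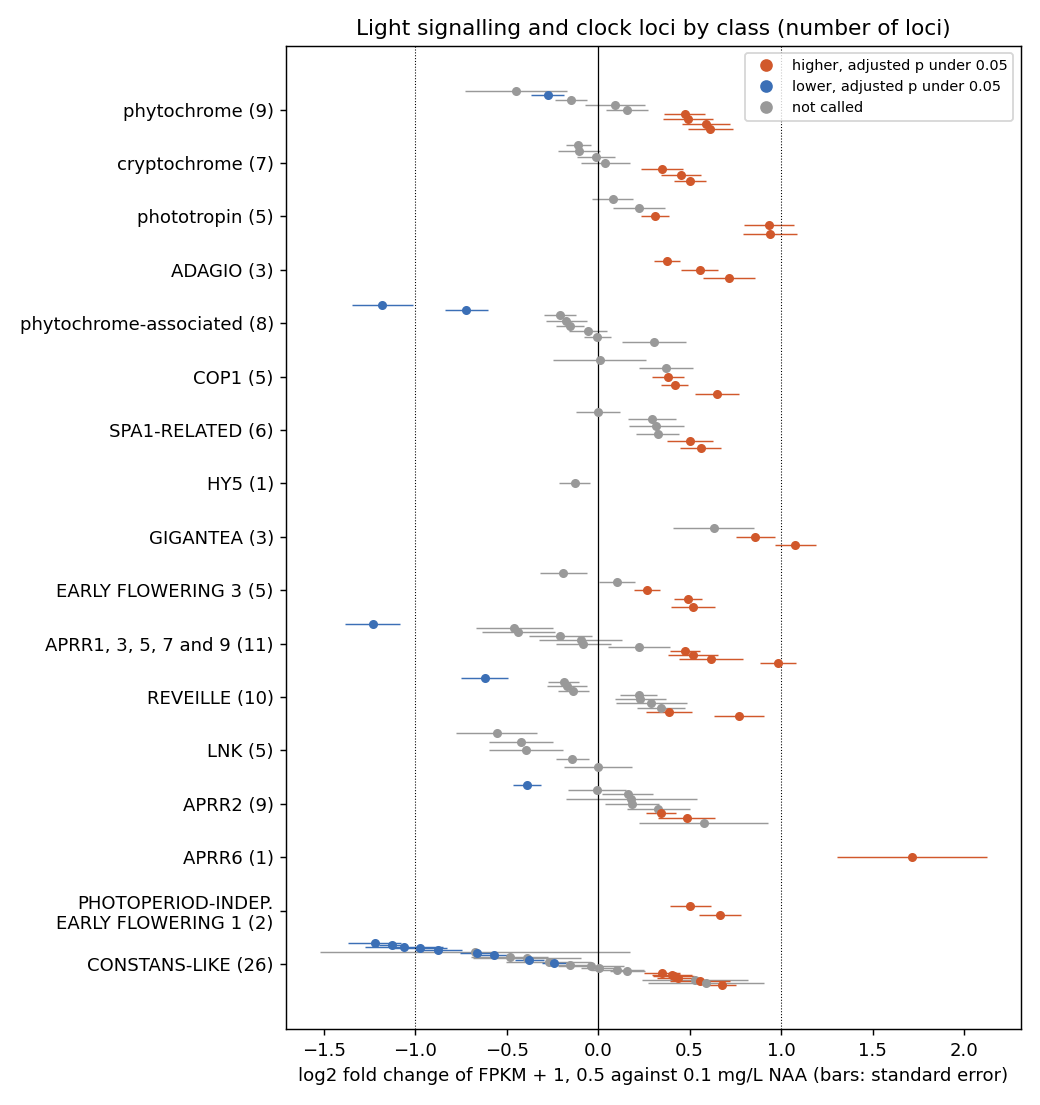
Log2 fold change of FPKM + 1 at 0.5 against 0.1 mg/L NAA (horizontal axis) for each of the 116 loci, grouped by protein class with the number of loci in brackets. Points are fitted values, bars their standard error, colours the call at an adjusted p under 0.05, and dotted lines a log2 fold change of 1 either way. All 3 ADAGIO loci lie to the right of 0 with a call, all 5 LNK loci are uncalled, and the CONSTANS-LIKE loci spread from -1.22 to 0.68.

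With a log2 fold change of at least 1 as well, 7 of the 116 loci were differentially expressed, 2 up and 5 down. That is 6.03% of them, beside 5.86% of all loci (3.24% up and 2.62% down). The pair that rose were an APRR6 locus and a GIGANTEA-like locus. The 5 that fell were an APRR1 locus, a phytochrome A-associated F-box protein, a CONSTANS-LIKE 4 locus and 2 CONSTANS-LIKE 11 loci. Without replicate 1 or without replicate 3 at 0.5 mg/L NAA the CONSTANS-LIKE 11 locus on chromosome 14 no longer reached a fold change of 1 on the log2 scale. The balance of directions turned with libraries rescaled to one total (6 up and 2 down) and without replicate 1 at 0.5 mg/L NAA (5 up and 4 down).

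**Figure D2:**
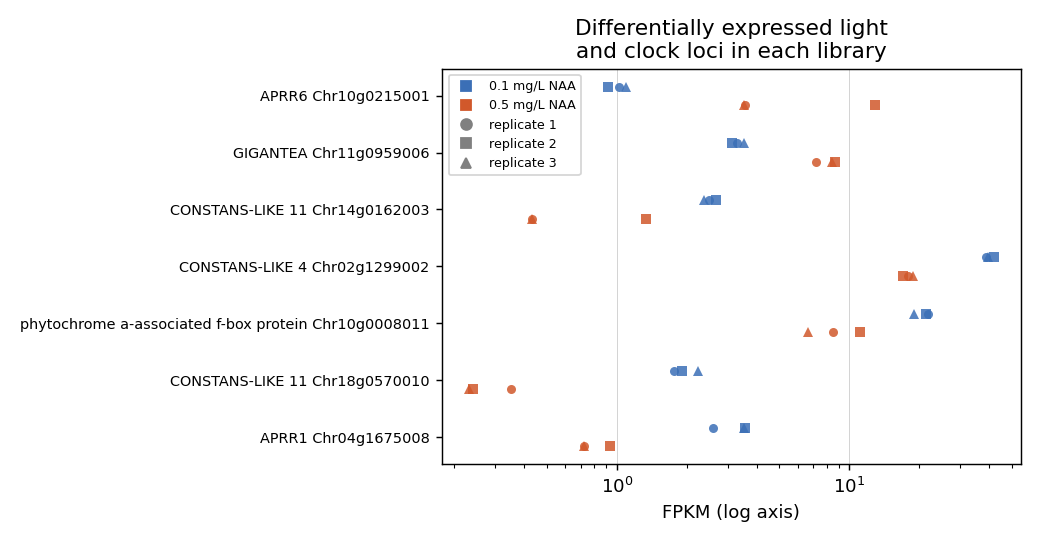
FPKM (log axis) of the 7 differentially expressed light and clock loci in each of the 6 libraries, with colour for the NAA concentration and shape for the replicate, ordered from the largest rise to the largest fall. The treatments do not overlap in any of the 7 loci, and replicate 2 at 0.5 mg/L stands far above its fellow libraries for APRR6 (12.97 against 3.54 and 3.56 FPKM).

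Most loci of phototropins, ADAGIO proteins and phytochrome B rose, and neither phytochrome A1 locus did. Of 24 loci of phytochromes, cryptochromes, phototropins and ADAGIO proteins, 13 were higher and 1 lower, with a median log2 fold change of 0.33. The 54.2% that were higher stood beside 21.7% of all loci, and the 4.17% that were lower beside 20.2%. Without replicate 1 at 0.1 mg/L NAA, 15.0% of all loci were higher. The higher loci then were 2 of 9 phytochromes, 2 of 7 cryptochromes, 2 of 5 phototropins and all 3 ADAGIO loci. Phototropins steer growth towards light, move chloroplasts and open stomata, and 3 of their 5 loci rose. The phototropin-1 locus on chromosome 2 (Niben261Chr02g0222009) had 10.19, 12.87 and 10.58 FPKM in the 3 libraries at 0.1 mg/L and 20.30, 19.72 and 27.72 at 0.5 mg/L NAA. Every library at 0.5 mg/L lay well above those at 0.1 mg/L NAA. The mean rose from 11.2 ± 1.45 to 22.6 ± 4.46 FPKM (SD, n = 3), and the log2 fold change was 0.94 (SE, its standard error, 0.15 and limma adjusted p = 0.0025). A phototropin-2 locus on chromosome 10 (Niben261Chr10g0382001) had 17.22, 16.42 and 17.77 against 29.71, 30.09 and 42.38 FPKM. Replicate 3 at 0.5 mg/L stood above the other libraries of its group, and the groups did not overlap. Its log2 fold change was 0.93 (SE 0.14 and limma adjusted p = 0.0019). The most strongly expressed phototropin locus (phototropin-1-like, Niben261Chr02g0222005, chromosome 2) moved less, from 35.9 ± 1.41 to 44.7 ± 3.05 FPKM (SD, n = 3), a log2 fold change of 0.31 (limma adjusted p = 0.015). That call was lost without replicate 1 or replicate 2 at 0.1 mg/L NAA (adjusted p = 0.056 and 0.062 from limma). The remaining phototropin loci had log2 fold changes of 0.08 and 0.22 with overlapping groups.

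All 3 ADAGIO loci rose. These F-box proteins bind blue light through the same kind of domain as phototropins and mark clock and flowering proteins for degradation. The adagio protein 3 locus on chromosome 3 (Niben261Chr03g0922005), of the type named FKF1 in Arabidopsis, had 8.04, 7.19 and 7.31 FPKM at 0.1 mg/L and 11.11, 16.25 and 12.06 at 0.5 mg/L NAA. The groups did not overlap, and replicate 2 was the highest at 0.5 mg/L. The log2 fold change was 0.72 (SE 0.14 and limma adjusted p = 0.0062). The other adagio protein 3 locus (Niben261Chr18g0648003, chromosome 18) had 5.88, 6.63 and 6.76 against 9.34, 10.89 and 9.50 FPKM, a log2 fold change of 0.55 (limma adjusted p = 0.0047). Adagio protein 1, the ZEITLUPE type, was the highest of the class (Niben261Chr18g0417003, chromosome 18). Its libraries were tight, with 13.95, 14.33 and 14.44 FPKM against 18.67, 18.61 and 19.07, a log2 fold change of 0.38 (SE 0.07 and limma adjusted p = 0.0050).

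Among the 9 phytochrome loci, 4 rose (44.4%, beside 21.7% of all loci) and 1 fell (11.1%, beside 20.2%). Phytochrome B is the main receptor of red light in green plants, and phytochrome A senses far-red light and the first light after darkness. Of 5 phytochrome B loci 3 rose, the largest change being that of Niben261Chr01g0910001 on chromosome 1, with 2.45, 2.00 and 2.26 against 3.63, 4.37 and 3.86 FPKM and a log2 fold change of 0.61 (limma adjusted p = 0.0065). The 2 phytochrome B loci with the highest levels, on chromosomes 4 and 17 (Niben261Chr04g0845007 and Niben261Chr17g0991007), rose from means of 8.13 and 8.30 to 11.7 and 12.0 FPKM. Their adjusted p values from limma were 0.013 and 0.023. Both calls were lost without replicate 1 or replicate 2 at 0.1 mg/L, with adjusted p between 0.0501 and 0.084 from limma, and that on chromosome 17 also without replicate 3 at 0.5 mg/L NAA (0.068). The single phytochrome C locus (Niben261Chr19g0191025, chromosome 19) had 1.03, 1.33 and 1.21 against 2.18, 2.43 and 2.26 FPKM, a log2 fold change of 0.59 (limma adjusted p = 0.0096). Phytochrome A1 was the most abundant phytochrome. Its locus on chromosome 3 (Niben261Chr03g0903001) had 21.94, 20.82 and 21.13 against 19.50, 20.84 and 17.26 FPKM with overlapping groups (log2 fold change -0.15, adjusted p = 0.22 from limma). The other phytochrome A1 locus (Niben261Chr18g0619013, chromosome 18) was called lower, with a log2 fold change of -0.28 (limma adjusted p = 0.042). It was lost in each leave-out except that of replicate 1 at 0.5 mg/L NAA, and under 3 other settings, with adjusted p between 0.056 and 0.42 from limma.

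Of 7 cryptochrome loci, 3 rose (42.9%, beside 21.7% of all loci) and none fell. Cryptochromes are the blue light receptors that restrain stem growth and act on flowering time. A cryptochrome-1 locus on chromosome 9 (Niben261Chr09g0302002) had 24.47, 27.39 and 26.29 FPKM at 0.1 mg/L and 33.58, 39.37 and 39.02 at 0.5 mg/L NAA, without overlap. Its log2 fold change was 0.50 (SE 0.09 and limma adjusted p = 0.0039). The cryptochrome 2 locus (Niben261Chr10g0114008, chromosome 10) rose from 18.8 ± 2.69 to 26.0 ± 0.743 FPKM (SD, n = 3), a log2 fold change of 0.45 (limma adjusted p = 0.014). The third, a cryptochrome-1-like locus on chromosome 17 (Niben261Chr17g0453011), had a log2 fold change of 0.35 (limma adjusted p = 0.042), which lost its call without any single library at 0.1 mg/L and without replicate 3 at 0.5 mg/L NAA (adjusted p between 0.059 and 0.13 from limma). The most abundant copy, cryptochrome-1-like Niben261Chr11g0881001 on chromosome 11, did not pass the test although its groups did not overlap, with 43.45, 42.47 and 46.11 against 41.34, 39.33 and 41.63 FPKM (log2 fold change -0.11, adjusted p = 0.24 from limma). The cryptochrome DASH locus, of a family known for repair of DNA after ultraviolet damage, had a log2 fold change of -0.01.

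**Figure D3:**
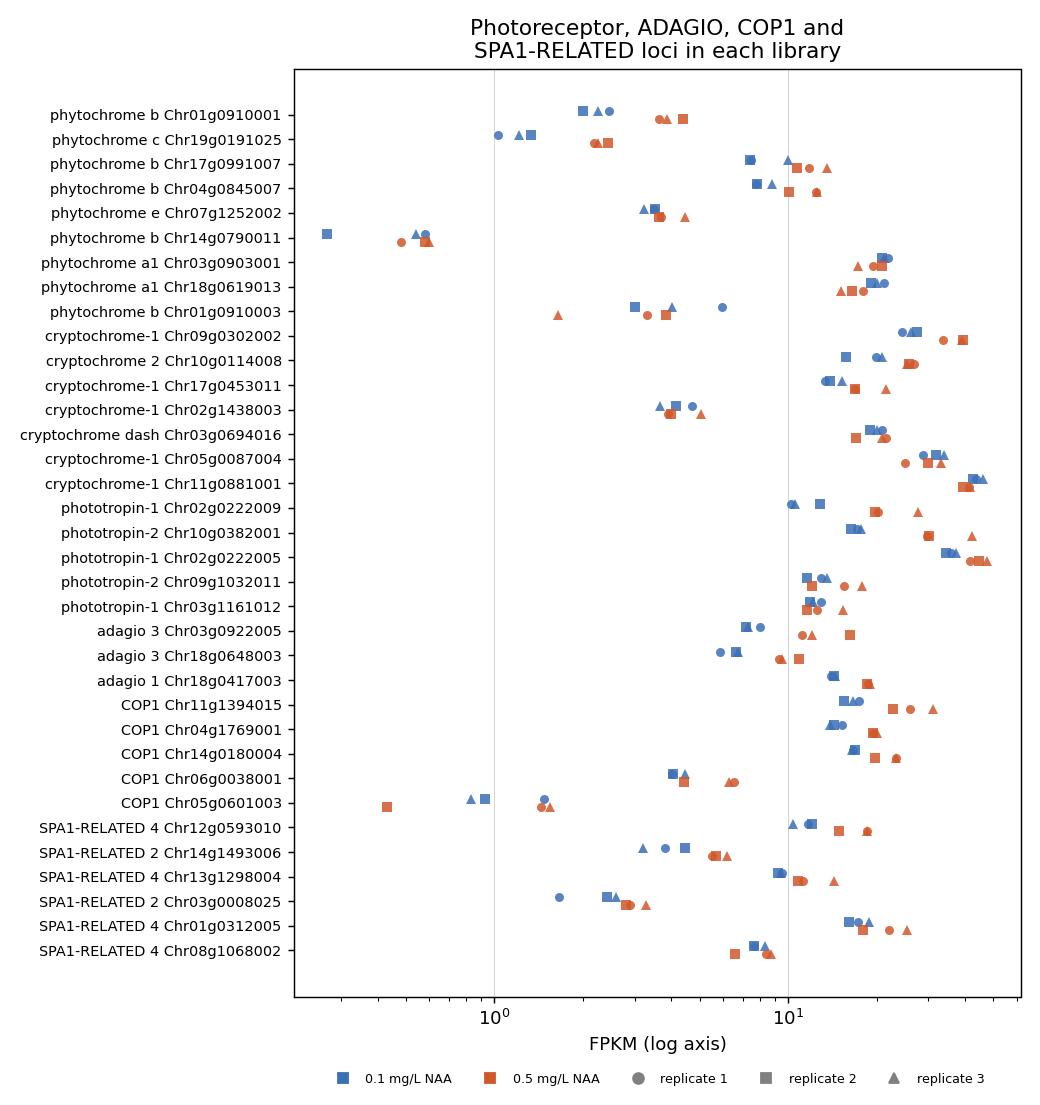
FPKM (log axis) of the 35 photoreceptor, ADAGIO, COP1 and SPA1-RELATED loci in each library, ordered within each class by fold change, with colour for the NAA concentration and shape for the replicate. The orange points at 0.5 mg/L lie to the right of the blue points in the upper rows of each class. In every class except ADAGIO the lower rows include loci where the groups overlap. The phytochromes and cryptochromes also hold loci where the order turns, which for the cryptochromes is the lowest row.

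Of 8 phytochrome-associated loci none rose and 2 fell, a share near the 20.2% of all loci, with a median log2 fold change of -0.16 that was 0.02 with libraries rescaled to one total. Both that fell were phytochrome A-associated F-box proteins, known in Arabidopsis as EID1, a brake on phytochrome A signalling. On chromosome 10 the first (Niben261Chr10g0008011) had 21.84, 21.34 and 19.00 FPKM at 0.1 mg/L and 8.49, 11.15 and 6.62 at 0.5 mg/L NAA. Its highest library at 0.5 mg/L was far below its lowest at 0.1 mg/L NAA. The mean fell from 20.7 ± 1.52 to 8.75 ± 2.28 FPKM (SD, n = 3), a log2 fold change of -1.18 (SE 0.17 and limma adjusted p = 0.0016). The other F-box locus (Niben261Chr09g0441010, chromosome 9) had 43.20, 41.28 and 41.72 against 21.62, 30.20 and 24.23 FPKM, a log2 fold change of -0.72 (SE 0.12 and limma adjusted p = 0.0029). The other 6 loci of this class were phytochrome-associated serine/threonine phosphatases, which remove phosphate from phytochromes, and none passed the test. The most abundant of them (Niben261Chr08g0310019, chromosome 8) had 42.1 ± 1.99 against 37.8 ± 2.22 FPKM (SD, n = 3), a log2 fold change of -0.15 (limma adjusted p = 0.14).

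The COP1 and SPA genes, whose products repress light responses, rose in 5 of 11 loci (45.5%, beside 21.7% of all loci) and fell in none, with a median log2 fold change of 0.37. With libraries rescaled to one total, 4 of 5 COP1 and 5 of 6 SPA loci rose, beside 34.3% of all loci. Without replicate 2 at 0.5 mg/L NAA 4 of each did, beside 21.4% of all loci. Under quantile normalization 3 COP1 loci and 1 SPA locus rose, beside 18.8% of all loci. The same counts came without replicate 1 or replicate 3 at 0.1 mg/L NAA, beside 15.0% and 17.1% of all loci. The COP1-like locus on chromosome 11 (Niben261Chr11g1394015), the most abundant, had 17.45, 15.45 and 16.60 FPKM at 0.1 mg/L and 25.92, 22.68 and 31.24 at 0.5 mg/L NAA. The groups did not overlap. Its log2 fold change was 0.65 (SE 0.12 and limma adjusted p = 0.0048). COP1-like loci on chromosomes 4 and 14 (Niben261Chr04g1769001 and Niben261Chr14g0180004) rose by 0.42 and 0.38 on the log2 scale, and limma gave adjusted p of 0.0040 and 0.011. A SPA1-RELATED 4-like locus (Niben261Chr12g0593010, chromosome 12) had 11.72, 12.08 and 10.38 against 18.56, 14.89 and 18.59 FPKM, a log2 fold change of 0.56 (limma adjusted p = 0.0064). A SPA1-RELATED 2 locus (Niben261Chr14g1493006, chromosome 14) had a log2 fold change of 0.50 (limma adjusted p = 0.017), with 0.054 and 0.0501 when replicate 1 or replicate 3 at 0.1 mg/L was left out. The most abundant SPA1-RELATED 4-like locus (Niben261Chr01g0312005, chromosome 1) had 17.4 ± 1.40 against 21.7 ± 3.70 FPKM (SD, n = 3) and did not pass (limma adjusted p = 0.11). HY5, a transcription factor that COP1 removes in the dark, was measured at 1 locus (Niben261Chr18g0238001, chromosome 18). It had 26.64, 26.37 and 31.38 against 24.89, 26.04 and 25.75 FPKM. The 0.5 mg/L group lay below the 0.1 mg/L group by a small margin, and the log2 fold change of -0.13 did not pass (95% confidence interval -0.33 to 0.07, adjusted p = 0.27 from limma) and was 0.06 with rescaled libraries.

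Clock genes were grouped by the time of day at which their Arabidopsis relatives are most active. The evening group of 18 loci (APRR1, APRR3, APRR5, GIGANTEA, EARLY FLOWERING 3 and ADAGIO 3) had 9 higher and 1 lower, with a median log2 fold change of 0.37. The 50.0% that rose stood beside 21.7% of all loci. The morning group of 18 loci (REVEILLE, LNK, APRR7 and APRR9) had 4 higher (22.2%, near the share of all loci) and 1 lower, with a median of -0.04 that was 0.11 with rescaled libraries and 0.06 without replicate 1 at 0.5 mg/L NAA. The difference between the groups was not tested, and the day phase of these loci in tobacco explants is not known from these data.

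GIGANTEA, which stabilises ADAGIO proteins and links the clock to flowering, was higher at 0.5 mg/L NAA in all 3 of its loci and passed the test in 2. The GIGANTEA-like locus on chromosome 11 (Niben261Chr11g0959006) had 3.29, 3.12 and 3.53 FPKM at 0.1 mg/L and 7.17, 8.73 and 8.45 at 0.5 mg/L NAA. Its lowest library at 0.5 mg/L was far above its highest at 0.1 mg/L NAA. The mean rose from 3.31 ± 0.206 to 8.12 ± 0.832 FPKM (SD, n = 3), a log2 fold change of 1.08 (SE 0.11 and limma adjusted p = 0.00059), which was 0.97 under quantile normalization. The most abundant GIGANTEA-like locus (Niben261Chr05g0186017, chromosome 5) had 10.75, 9.92 and 10.65 against 17.53, 22.72 and 19.25 FPKM, a log2 fold change of 0.86 (SE 0.11 and limma adjusted p = 0.0010). On chromosome 17 the third locus (Niben261Chr17g0410010) had 1.12, 1.41 and 1.11 against 1.78, 3.83 and 1.98 FPKM. Its replicate 2 at 0.5 mg/L stood far above the others, and the log2 fold change of 0.63 did not pass (limma adjusted p = 0.055).

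The 4 APRR1 loci split. APRR1, called TOC1 in Arabidopsis, represses the morning genes of the clock. The locus on chromosome 8 (Niben261Chr08g0181029) had 9.02, 9.30 and 8.38 FPKM at 0.1 mg/L and 17.45, 20.78 and 17.56 at 0.5 mg/L NAA. The groups were far apart. The mean rose from 8.90 ± 0.472 to 18.6 ± 1.89 FPKM (SD, n = 3), a log2 fold change of 0.98 (SE 0.10 and limma adjusted p = 0.00052). The most abundant APRR1 locus (Niben261Chr06g1094018, chromosome 6) rose less, with 13.01, 13.76 and 12.57 against 17.89, 20.02 and 18.03 FPKM and a log2 fold change of 0.48 (limma adjusted p = 0.0037). Opposite to these, the chromosome 4 locus (Niben261Chr04g1675008) had 2.60, 3.57 and 3.51 against 0.72, 0.93 and 0.72 FPKM. Every library at 0.5 mg/L lay far below every library at 0.1 mg/L NAA. Its mean fell from 3.23 ± 0.544 to 0.790 ± 0.121 FPKM (SD, n = 3), a log2 fold change of -1.23 (SE 0.15 and limma adjusted p = 0.00096). The fourth APRR1 locus (Niben261Chr13g0676004, chromosome 13) had 4.09, 5.07 and 4.27 against 4.52, 2.61 and 2.15 FPKM, where replicate 1 at 0.5 mg/L lay among the libraries at 0.1 mg/L NAA (log2 fold change -0.46, adjusted p = 0.12 from limma). Without that library the locus was called lower (log2 fold change -0.70, adjusted p = 0.011 from limma). How reads shared between such copies were assigned is not described, so levels of similar copies are uncertain. The 4 loci of APRR3 and APRR5, relatives of APRR1, had log2 fold changes between -0.44 and 0.22, and none passed.

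EARLY FLOWERING 3 is a core part of the evening complex that represses growth and clock genes at night in Arabidopsis. It rose in 3 of 5 loci (60.0%, beside 21.7% of all loci). The most abundant locus (Niben261Chr03g1545003, chromosome 3) had 19.64, 18.79 and 20.37 against 26.54, 29.24 and 28.09 FPKM. The groups were clearly apart, with a log2 fold change of 0.49 (SE 0.07 and limma adjusted p = 0.0022). The loci on chromosomes 4 and 14 (Niben261Chr04g0271007 and Niben261Chr14g1026006) rose by 0.52 and 0.27 on the log2 scale, and limma gave adjusted p of 0.012 and 0.021. The call on chromosome 14 was lost without replicate 1 or replicate 2 at 0.1 mg/L NAA (adjusted p = 0.061 and 0.079 from limma). It was also lost with a replicate term in the fit (limma adjusted p = 0.058). PCL1 is another name of LUX, the partner of EARLY FLOWERING 3. Loci described as PCL1-like were looked up after the other results were seen and were not counted in the evening group. None of 3 passed, with log2 fold changes of -0.46, -0.16 and 0.20.

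Libraries of the 0.5 mg/L group differed among themselves in the evening genes. Replicate 2 was the highest of the 3 libraries in 15 of 18 evening loci (83.3%, beside 35.1% of all loci), and replicate 1 was the lowest in 14 of 18 (77.8%, beside 27.8% of all loci). The median log2 distance of the evening loci from their mean at 0.1 mg/L was 0.28 in replicate 1, 0.54 in replicate 2 and 0.35 in replicate 3 of the 0.5 mg/L group, so all 3 lay above the libraries at 0.1 mg/L, which were between -0.01 and 0.03. For the morning loci the same medians were -0.07, 0.05 and -0.04. Green tissue markers also differed among these libraries. RuBisCO small subunit loci summed to 2119, 1245 and 1437 FPKM in replicates 1, 2 and 3, the reverse of the order of the evening medians. Chlorophyll a-b binding protein loci summed to 1732, 1614 and 1479 FPKM in the same replicates, with replicate 3 the lowest. The part of green tissue in the evening pattern was not tested. Without replicate 2 the evening group had 9 higher and 2 lower loci, and over all settings it had 8 to 11 higher and 1 or 2 lower.

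**Figure D4:**
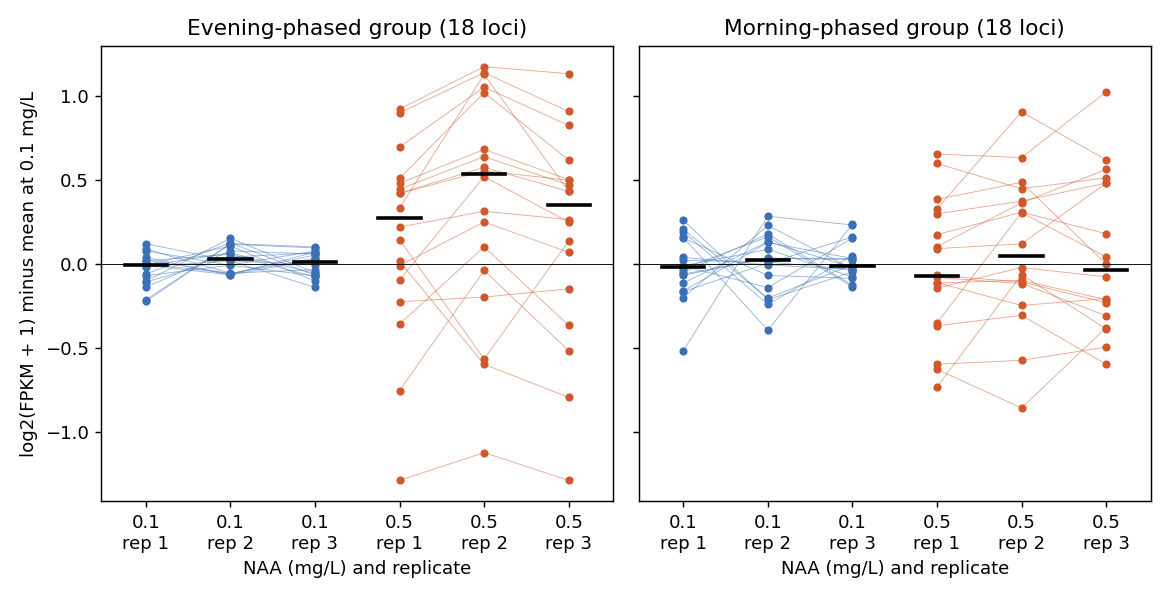
Log2(FPKM + 1) of each clock locus minus its mean at 0.1 mg/L NAA (vertical axis) in each library, for the 18 evening and the 18 morning loci. Points are loci, thin lines join a locus within a treatment, and black bars are medians, which stand at 0.28, 0.54 and 0.35 for evening loci and at -0.07, 0.05 and -0.04 for morning loci at 0.5 mg/L NAA.

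Among the morning genes, changes went both ways and most loci did not pass. REVEILLE proteins are MYB factors related to LHY. Of 10 loci 2 rose (20.0%, near the 21.7% of all loci) and 1 fell (10.0%, beside 20.2%). A REVEILLE 1-like locus (Niben261Chr07g1401010, chromosome 7), whose Arabidopsis relative links the clock to auxin synthesis, had 4.75, 5.82 and 5.14 FPKM at 0.1 mg/L and 8.79, 8.65 and 11.65 at 0.5 mg/L NAA. Its groups did not overlap, and its log2 fold change was 0.77 (SE 0.14 and limma adjusted p = 0.0039). A REVEILLE 8-like locus (Niben261Chr04g0332004, chromosome 4) fell, with 11.84, 11.45 and 11.21 against 7.09, 5.90 and 8.61 FPKM, a log2 fold change of -0.62 (SE 0.13 and limma adjusted p = 0.0077). REVEILLE 8 activates evening genes in Arabidopsis. The other REVEILLE 8 locus, the most abundant of the class (Niben261Chr02g1130010, chromosome 2), had 19.4 ± 1.17 against 17.5 ± 1.07 FPKM (SD, n = 3) with overlapping groups (limma adjusted p = 0.23). Of the LNK proteins, which act with REVEILLE 8, none of 5 loci passed, and all 5 had a log2 fold change below 0, from -0.55 to -0.0012, with adjusted p between 0.081 and 1.0 from limma. With rescaled libraries 2 of the 5, the most abundant locus among them with 0.17, had values above 0. The most abundant LNK locus (LNK4-like, Niben261Chr10g0349016, chromosome 10) had 9.78, 6.99 and 8.77 against 6.40, 10.67 and 8.72 FPKM, which overlap fully.

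One APRR7 locus and the APRR9 locus were called higher, and both calls lay near the threshold. APRR7 and APRR9 repress the LHY-type genes through the day in Arabidopsis. The APRR7 locus (Niben261Chr01g1708008, chromosome 1) had 1.36, 1.69 and 1.19 against 2.64, 2.28 and 2.43 FPKM, a log2 fold change of 0.52 (limma adjusted p = 0.019). It was not called without replicate 1 or 3 at 0.1 mg/L or without replicate 1 at 0.5 mg/L NAA (log2 fold changes of 0.45 to 0.51, adjusted p between 0.053 and 0.063 from limma). The APRR9 locus (Niben261Chr08g0390011, chromosome 8) had 1.88, 1.47 and 1.44 against 2.25, 3.85 and 2.98 FPKM, a log2 fold change of 0.62 (limma adjusted p = 0.026). It was not called without replicate 2 or 3 of either group (log2 fold changes of 0.47 to 0.62, adjusted p between 0.060 and 0.082 from limma). A REVEILLE 6 locus (Niben261Chr10g0944006, chromosome 10; adjusted p = 0.042 from limma) was not called in 5 of the 6 leave-outs. The morning group had 4 higher loci with all libraries, 1 without replicate 3 at 0.1 mg/L, 2 without replicate 1 at 0.1 mg/L, 2 without replicate 2 and 2 without replicate 3 at 0.5 mg/L NAA, and 6 with libraries rescaled to one total.

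APRR6 and APRR2 carry the APRR name but are not held to be core clock genes. The putative APRR6 locus (Niben261Chr10g0215001, chromosome 10) had the largest rise of all 116 loci, with 1.02, 0.92 and 1.10 FPKM at 0.1 mg/L and 3.56, 12.97 and 3.54 at 0.5 mg/L NAA. The groups did not overlap, and replicate 2 at 0.5 mg/L was far above the rest. Its log2 fold change was 1.72 (SE 0.41 and limma adjusted p = 0.013) and 1.18 without that library (limma adjusted p = 0.0015). APRR2 is related to the GLK factors of chloroplast development, and pigment of fruit depends on it in pepper and tomato. Of 9 APRR2 loci 2 rose (22.2%, near the 21.7% of all loci) and 1 fell (11.1%, beside 20.2%). The most abundant (Niben261Chr06g1201001, chromosome 6) had 86.30, 87.31 and 78.81 against 70.02, 109.80 and 76.42 FPKM, where replicate 2 at 0.5 mg/L was above and its fellow libraries were below all at 0.1 mg/L NAA (limma adjusted p = 0.98). One on chromosome 9 (Niben261Chr09g1303002) fell from 63.2 ± 1.31 to 48.1 ± 3.82 FPKM (SD, n = 3), a log2 fold change of -0.39 (limma adjusted p = 0.0059), which was -0.20 with libraries rescaled to one total (limma adjusted p = 0.068). One on chromosome 5 (Niben261Chr05g1155006) rose from 53.2 ± 2.28 to 67.9 ± 6.23 FPKM (SD, n = 3), a log2 fold change of 0.34 (limma adjusted p = 0.014), with 0.052 when replicate 3 at 0.1 mg/L was left out. A weaker call, on chromosome 7 (Niben261Chr07g0290008, log2 fold change 0.49, limma adjusted p = 0.040), was lost in 5 of 6 leave-outs.

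Both loci of PHOTOPERIOD-INDEPENDENT EARLY FLOWERING 1 rose. The product is the motor of a chromatin remodeller that places histone H2A.Z, so it is neither a light receptor nor a clock protein, and its name brought it into the list. The locus on chromosome 8 (Niben261Chr08g0917001) had 1.78, 1.97 and 2.00 FPKM at 0.1 mg/L and 3.40, 3.78 and 3.72 at 0.5 mg/L NAA, a log2 fold change of 0.67 (SE 0.11 and limma adjusted p = 0.0035). The locus on chromosome 6 (Niben261Chr06g0996010) had 2.31, 2.16 and 2.16 against 3.66, 3.71 and 3.29 FPKM, a log2 fold change of 0.50 (limma adjusted p = 0.010). Neither locus had overlapping groups.

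The CONSTANS-LIKE genes held 9 of the 15 light and clock loci that fell. Of their 26 loci 9 fell (34.6%, beside 20.2% of all loci) and 6 rose, with a median log2 fold change of -0.20, and 3 of the 5 differentially expressed loci that went down belonged here. All 3 CONSTANS-LIKE 4 loci, both CONSTANS-LIKE 5 loci and 2 of 3 CONSTANS-LIKE 11 loci fell, and 2 of 3 CONSTANS-LIKE 9 loci rose. With libraries rescaled to one total, 7 rose and 7 fell, and the median was -0.01. It was -0.10 without replicate 2 and -0.09 without replicate 3 at 0.1 mg/L NAA. Without replicate 1 at 0.1 mg/L, 1 locus was called higher and 8 lower, and without replicate 2 at 0.1 mg/L, 3 were higher and 9 lower.

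The CONSTANS-LIKE 4 locus on chromosome 2 (Niben261Chr02g1299002) had 38.75, 42.09 and 39.77 FPKM at 0.1 mg/L and 17.91, 17.02 and 18.77 at 0.5 mg/L NAA. Libraries within each group were close, and the groups were far apart. The mean fell from 40.2 ± 1.71 to 17.9 ± 0.875 FPKM (SD, n = 3), a log2 fold change of -1.12 (SE 0.07 and limma adjusted p = 0.00014), and -0.94 with libraries rescaled to one total. The other CONSTANS-LIKE 4 loci were the most abundant of the class and fell less. That on chromosome 19 (Niben261Chr19g0712004) went from a mean of 75.6 to 58.0 FPKM, with a log2 fold change of -0.38 (limma adjusted p = 0.0089) that was -0.18 with rescaled libraries (limma adjusted p = 0.090). The most abundant locus (Niben261Chr05g0762003, chromosome 5) had 97.51, 100.73 and 91.07 against 82.99, 80.91 and 80.62 FPKM, without overlap, and a log2 fold change of -0.24 (limma adjusted p = 0.023). That call was lost under rescaling (log2 fold change -0.05, limma adjusted p = 0.57) and under quantile normalization (log2 fold change -0.09, limma adjusted p = 0.30). It was also lost without replicate 1 or 2 at 0.1 mg/L NAA (limma adjusted p = 0.089 and 0.093). A replicate term or a fit without the mean-variance trend left it just above the threshold (limma adjusted p = 0.052 and 0.0503).

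Large falls were also seen among weakly expressed CONSTANS-LIKE genes. The CONSTANS-LIKE 11 locus on chromosome 18 (Niben261Chr18g0570010) had 1.77, 1.91 and 2.24 FPKM at 0.1 mg/L and 0.35, 0.24 and 0.23 at 0.5 mg/L NAA. The ratio of the means was 7.22, with a log2 fold change of -1.22 on the scale of FPKM + 1 (SE 0.15 and limma adjusted p = 0.00089). The CONSTANS-LIKE 11 locus on chromosome 14 (Niben261Chr14g0162003) had 2.49, 2.67 and 2.38 against 0.43, 1.33 and 0.43 FPKM, where replicate 2 at 0.5 mg/L was between the others and the 0.1 mg/L group. Its log2 fold change was -1.06 (SE 0.21 and limma adjusted p = 0.0066). The CONSTANS-LIKE 5 loci on chromosomes 2 and 6 (Niben261Chr02g0377005 and Niben261Chr06g1477007) had means of 3.48 and 3.12 FPKM at 0.1 mg/L and of 1.45 and 1.10 at 0.5 mg/L NAA. Their log2 fold changes were -0.87 and -0.97, and limma gave adjusted p of 0.0019 and 0.0023. A CONSTANS-LIKE 16-like locus (Niben261Chr04g1487011, chromosome 4) fell from 32.3 ± 1.97 to 20.0 ± 1.78 FPKM (SD, n = 3), a log2 fold change of -0.66 (limma adjusted p = 0.0014).

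CONSTANS-LIKE 9, which delays flowering when overproduced in Arabidopsis, gave the largest rise of the class. Its locus on chromosome 12 (Niben261Chr12g0847010) had 18.17, 16.22 and 16.53 FPKM at 0.1 mg/L and 27.40, 28.77 and 26.93 at 0.5 mg/L NAA. The groups were clearly apart, with a log2 fold change of 0.68 (SE 0.08 and limma adjusted p = 0.00077). The other 5 loci that rose had log2 fold changes between 0.35 and 0.56, and each lost its call without replicate 1 at 0.1 mg/L NAA (log2 fold changes of 0.31 to 0.46, adjusted p between 0.064 and 0.098 from limma).

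**Figure D5:**
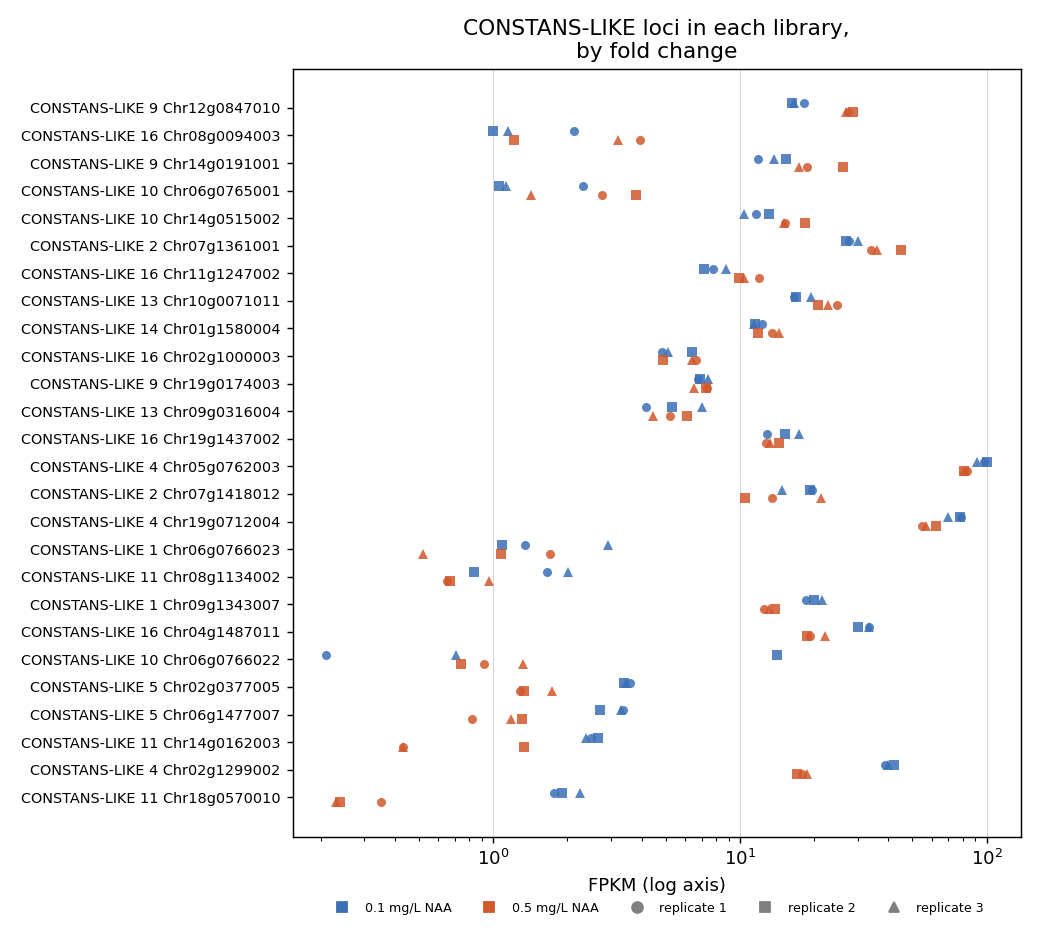
FPKM (log axis) of the 26 CONSTANS-LIKE loci in each library, ordered from the largest rise to the largest fall, with colour for the NAA concentration and shape for the replicate. The 5 lowest rows, 2 CONSTANS-LIKE 11, 1 CONSTANS-LIKE 4 and both CONSTANS-LIKE 5 loci, have the 0.5 mg/L group to the left of the 0.1 mg/L group, and the CONSTANS-LIKE 9 locus at the top has it to the right.

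Copies with the same description were compared side by side, since the genome holds several of most genes. There were 33 descriptions with more than 1 copy, covering 105 loci. In 16 of them at least 2 copies were called, and in 13 of the 16 all called copies moved the same way, such as COP1, ADAGIO 3, phototropin-1, phytochrome B and CONSTANS-LIKE 4. Copies called in opposite directions were found for APRR1, APRR2 and CONSTANS-LIKE 16. Among 155 pairs of copies, 23 were both called in the same direction and 5 in opposite directions. Of the 55 called loci 40 were higher, and whether copies moved together more often than other loci was not tested.

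Genes of light signalling and clock output outside these names were also followed, by words for their families. Of 125 such loci 16 rose (12.8%, beside 21.7% of all loci) and 26 fell (20.8%, near the 20.2% of all loci), with a median log2 fold change of -0.04. Differentially expressed were 10 (8.0%, beside 5.86% of all loci), 4 up and 6 down. The clock regulator TIME FOR COFFEE rose in all 3 loci. Its locus on chromosome 13 (Niben261Chr13g0321005) had 7.80, 8.21 and 7.91 FPKM at 0.1 mg/L and 21.42, 21.48 and 22.22 at 0.5 mg/L NAA, a log2 fold change of 1.34 (SE 0.07 and limma adjusted p = 8.4e-05). The libraries within each group were nearly equal. Another locus (Niben261Chr17g0893007, chromosome 17) rose by 1.21 on the log2 scale (limma adjusted p = 0.00013). Factors of the PIF type bind phytochromes and promote growth in the dark. None of their 9 loci rose and 3 fell (33.3%, beside 20.2% of all loci). A PIF4 locus (Niben261Chr19g0141003, chromosome 19) had 10.40, 13.13 and 15.06 against 1.45, 2.61 and 3.59 FPKM, a log2 fold change of -2.00 (SE 0.24 and limma adjusted p = 0.00088).

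B-box zinc finger proteins, relatives of CONSTANS that act with COP1 and HY5, rose in 1 of 12 loci and fell in 3. The B-box 24-like locus on chromosome 4 (Niben261Chr04g1743002) had 90.66, 100.88 and 93.40 FPKM at 0.1 mg/L and 34.25, 40.38 and 32.93 at 0.5 mg/L NAA, a log2 fold change of -1.38 (SE 0.09 and limma adjusted p = 0.00014). Its copy on chromosome 13 (Niben261Chr13g1431009) fell by 1.53 on the log2 scale (limma adjusted p = 0.00016). LIGHT-DEPENDENT SHORT HYPOCOTYLS loci are named for a growth regulator of organ boundaries and meristems. None of 5 rose and 3 fell (60.0%, beside 20.2% of all loci). An example is Niben261Chr11g0069001 on chromosome 11, which fell by 1.05 on the log2 scale. The other families moved less evenly. FAR1-RELATED factors, partners of phytochrome A, had 6 higher and 2 lower of 30, cyclic dof factors, repressors of CONSTANS, 1 higher and 3 lower of 12, and subunits of the COP9 signalosome, DET1, DDB1 and cullin-4, which work with COP1, 3 higher and 5 lower of 25. Loci described as UVR8, the ultraviolet-B receptor, had 0 higher and 4 lower of 18 (22.2%, near the 20.2% of all loci). Root phototropism proteins, which act with phototropins, had 2 higher and 2 lower of 10 (20.0% each way, near the shares of all loci). Both that rose were differentially expressed, and the largest log2 fold change of this family was 1.16.

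The 13 loci with a light or clock name below 0.5 FPKM were outside the main test. They were 7 CONSTANS-LIKE loci, 2 PHYTOCHROME KINASE SUBSTRATE 3-like loci and 1 locus each of phytochrome E, EARLY FLOWERING 4, APRR5 and GIGANTEA, with means from 0.03 to 0.308 FPKM. In the fit without the minimum, 1 of the 13 was called, the APRR5 locus (Niben261Chr03g1151007, chromosome 3). It had 0.40, 0.41 and 0.55 FPKM at 0.1 mg/L and 0, 0.20 and 0.10 at 0.5 mg/L NAA, without overlap (log2 fold change -0.40, limma adjusted p = 0.019).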

How the data were processed

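Total RNA was sequenced with a SMARTer kit per the labels, in 3 libraries at each NAA concentration. The deposited table holds FPKM values for 39825 loci, computed by the authors from fragments scaled to transcript length and library size. The aligner, quantifier and annotation release for these 2-week libraries are not given in the sources used here. Columns were matched to samples by name.

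FPKM were transformed to log2(FPKM + 1), loci with a mean of at least 0.5 were kept (32443), and treatments were compared with limma 3.58.1 in R 4.3.3 with a mean-variance trend. Adjusted p values are Benjamini-Hochberg values over all loci kept. A locus was called under 0.05 and differentially expressed with an absolute log2 fold change of at least 1 as well. The fit was checked on simulated data.

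Members, family lists and marker lists were chosen with earlier results of these data known. Fixed rules named the differentially expressed loci and the most abundant locus of each class (23 loci), and all other loci were named after their values were seen. LUX was read as a whole word, and words for DET1 were narrowed after descriptions were read. Alternatives were another pseudocount, other filters and scalings, a replicate term, no trend, and each library left out in turn. No sequences are shown, as none were used here.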

Additional observations from a re-analysis of the deposited data

How the results depend on the processing

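Alternatives were computed for the counts and for every light and clock locus. No called value turned direction in the 14 alternatives. With rescaled libraries, 18 uncalled loci with log2 fold changes between -0.17 and -0.00074 had values above 0. Of 55 called loci, 35 kept their call under every alternative. For 58 loci followed one by one, 750 values stayed on the same side of the threshold, 55 called values were lost and 7 were gained.

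Rescaling all libraries to one total (the TPM scale) gave 6 differentially expressed loci up and 2 down, in place of 2 and 5, and quantile normalization gave 1 up. A pseudocount of 0.1 gave 10 differentially expressed loci, 3 up and 7 down. Leaving out 1 library at a time gave 26 to 43 loci higher, 14 to 16 lower, 40 to 58 called in all, and 7 to 10 differentially expressed, with 2 to 5 up and 4 to 6 down. The lowest count of higher loci, 26, came without replicate 1 at 0.1 mg/L, and the 5 up came without replicate 1 at 0.5 mg/L NAA.

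Same-numbered libraries did not deviate together, with correlations of 0.0216, 0.00977 and 0.00958, so the numbers were not taken as pairs, although each library correlated best with its own number. With the replicate number as a block, 51 loci were called (38 higher, 13 lower), 7 were differentially expressed, and 36.9% of all loci were called. Among the calls lost under the block was that of APRR9 (Niben261Chr08g0390011, log2 fold change 0.62, limma adjusted p = 0.054). Read depth is unknown, which limits loci near the minimum of 0.5 FPKM. The cause of each change with the setting was not tested.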

Other observations

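A CONSTANS-LIKE 10-like locus (Niben261Chr06g0766022, chromosome 6) was high in a single library, with 0.21, 14.19 and 0.71 FPKM at 0.1 mg/L and 0.92, 0.74 and 1.32 at 0.5 mg/L NAA. The locus with the next identifier, CONSTANS-LIKE 1-like (Niben261Chr06g0766023), was not high in that library, with 1.35, 1.09 and 2.91 against 1.70, 1.08 and 0.52 FPKM. Phytochrome B loci with close identifiers on chromosome 1 also differed in their calls. Niben261Chr01g0910001 was called higher with a log2 fold change of 0.61. Niben261Chr01g0910003, described as partial, had 5.95, 3.01 and 4.02 against 3.31, 3.85 and 1.64 FPKM. Its groups overlapped, and its log2 fold change of -0.45 did not pass (limma adjusted p = 0.23).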
